A study of Mus musculus with 6 samples.

Results

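The genes described here carry glucose carbon through glycolysis, lactate exchange, the pyruvate dehydrogenase complex and the tricarboxylic acid (TCA) cycle, measured in hearts of E10.5 mouse embryos. A list of 39 genes was drawn up by function, 16 glycolytic enzymes, 4 genes of lactate formation and transport, 6 of the pyruvate dehydrogenase complex and its kinases, and 13 TCA cycle enzymes. A gene was a member if at least 1 probe set carried its symbol alone, and its probe set with the highest mean log2 signal over all 6 arrays was used. This held for 36 of the 39, out of 18193 genes on the array, and all 36 passed the filter on dim signals. Eno1 (enolase) and Gpi1 (glucose-6-phosphate isomerase) had no probe set with their symbol alone in the annotation used here. Gapdh (glyceraldehyde-3-phosphate dehydrogenase) had control probe sets and sets shared with its pseudogenes.

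The 3 knockout (KO) arrays came from global RhoE KO embryos made with a gene trap, which interrupts the gene Rnd3 in every tissue, and the 3 wild-type (WT) arrays from wild-type embryos. Both groups were of the C57BL/6N background and of stage E10.5, and neither had another allele or treatment in its labels. Per the design text, KO embryos die at this stage or within days of it, and the hearts came from littermate pairs. The knockout is not limited to the heart, so effects arising in other tissues cannot be told apart from those in it. No label says whether an array holds 1 heart or several, so p-values measure the spread between these arrays, which may be technical.

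Glycolysis splits glucose into pyruvate in the cytosol. Lactate dehydrogenase turns pyruvate into lactate, or the pyruvate dehydrogenase complex carries it into the mitochondrial TCA cycle as acetyl-CoA, a step that pyruvate dehydrogenase kinases switch off. The early embryonic heart is known for relying strongly on glycolysis before its mitochondria mature. Several steps have isozymes, such as Ldha and Ldhb, whose balance differs between tissues.

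Rnd3 read 5.89, 12.3 and 121 on the KO arrays, against 909, 954 and 862 on the WT arrays, and fell (log2 fold change -5.46, SE 0.81, adjusted p = 0.0344). Of 12712 genes tested, 162 passed the threshold of adjusted p 0.05, 100 higher and 62 lower in KO. With every array centred on its median, 253 were higher and 59 lower, with Xist as a covariate 306 and 513, without KO array 1 457 and 459, and at a threshold of 0.10 409 and 396. Xist, which marks female cells, read 539, 8884 and 28.4 on the KO arrays and 10251, 12474 and 11878 on the WT arrays, and the Y-linked gene Eif2s3y read 2214, 793 and 2339 on the KO arrays and 551, 312 and 385 on the WT arrays. Sex-linked genes thus differed between the groups together with genotype. Summed signals of cardiomyocyte markers (7 of 7 on the array, none at 0) were 148613 to 161646 in KO and 148832 to 167345 in WT. None of the 7 passed, but single markers differed in direction. Every KO array lay above every WT array for Nppa (0.25) and below for Myh6 (-0.25) and Nkx2-5 (-0.29). Groups without overlap thus made up 42.9% of these markers, against 26.3% of all tested genes. Erythroid markers (6 of 7) spanned 95610.2 to 109973 in KO and 92555 to 110356 in WT, and endothelial markers (6 of 6) 5360 to 5824 in KO and 5132 to 5887 in WT. Macrophage markers (5 of 5) summed to 792, 1836 and 1076 on the KO arrays and to 707 to 787 in WT. Among them only Lyz2 rose, with 368, 828 and 707 in KO, against 261, 203 and 232 in WT (1.38, adjusted p = 0.0374). Csf1r (-0.02), Adgre1 (0.02) and C1qb (0.13) overlapped between the groups, and Fcgr1 was too dim to test. Liver and yolk sac endoderm markers (6 of 6) summed to 346 to 1823 in KO and 1485 to 7350.23 in WT. All 5 that were tested had negative values. Among them only Alb fell, with 51.9, 36.8 and 20.7 in KO, against 87.8, 148 and 183 in WT (-1.97, adjusted p = 0.0499968). It was dim, above the low-signal limit on 1 KO array. Afp had the largest difference (-4.89, adjusted p = 0.125) and Fgb was too dim to test. In whole hearts, fewer cells of a type and less RNA per cell cannot be told apart. The part of these cell type markers in the results below was not tested.

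For 4 of the 5 members with the smallest adjusted p, and for Ldha as a classic glycolytic target of the hypoxia-inducible factor HIF, the 250 bases before a RefSeq transcription start are shown 5′ to 3′ on the gene's strand (GRCm38.p6). Capitals mark matches, on either strand, to ACGTG (the HIF core, which also lies in the E-box CACGTG), the core motif of NRF1 (given by name only), AAGGTCA (a half-site of oestrogen-related receptors) or CCAAT.

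Dld (chr12:31351472-31351721, minus strand): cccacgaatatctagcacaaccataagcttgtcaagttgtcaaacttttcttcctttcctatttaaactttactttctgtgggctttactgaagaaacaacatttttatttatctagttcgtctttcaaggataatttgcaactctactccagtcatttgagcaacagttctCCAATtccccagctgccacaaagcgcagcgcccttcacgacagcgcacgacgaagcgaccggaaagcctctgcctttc
Pdk3 (chrX:93832151-93832400, minus strand): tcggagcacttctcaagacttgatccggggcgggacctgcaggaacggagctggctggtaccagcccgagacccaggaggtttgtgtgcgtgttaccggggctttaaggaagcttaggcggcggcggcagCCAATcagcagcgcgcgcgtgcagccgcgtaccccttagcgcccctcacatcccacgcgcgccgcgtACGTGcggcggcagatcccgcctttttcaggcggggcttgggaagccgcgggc
Pdha1 (chrX:160138431-160138680, minus strand): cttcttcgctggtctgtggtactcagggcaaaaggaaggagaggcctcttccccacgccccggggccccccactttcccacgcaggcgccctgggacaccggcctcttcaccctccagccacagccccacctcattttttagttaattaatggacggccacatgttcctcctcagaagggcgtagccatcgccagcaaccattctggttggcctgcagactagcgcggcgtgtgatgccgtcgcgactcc
Sucla2 (chr14:73552536-73552785, plus strand): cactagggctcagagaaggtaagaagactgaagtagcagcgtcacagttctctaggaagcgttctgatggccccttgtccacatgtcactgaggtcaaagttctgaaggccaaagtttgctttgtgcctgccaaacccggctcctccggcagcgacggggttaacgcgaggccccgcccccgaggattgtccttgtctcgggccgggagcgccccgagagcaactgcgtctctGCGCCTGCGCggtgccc
Ldha (chr7:46845554-46845803, plus strand): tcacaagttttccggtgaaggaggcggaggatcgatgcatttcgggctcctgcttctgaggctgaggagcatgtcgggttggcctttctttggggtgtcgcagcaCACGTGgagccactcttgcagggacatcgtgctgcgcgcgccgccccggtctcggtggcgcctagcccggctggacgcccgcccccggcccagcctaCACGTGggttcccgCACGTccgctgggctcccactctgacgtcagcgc

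The Ldha window held ACGTG at 3 places, that of Pdk3 at 1, and those of Dld, Pdha1 and Sucla2 at none. Dld and Pdk3 each held 1 CCAAT and Sucla2 held 1 NRF1 match. Suclg1, the member of those 5 with the smallest adjusted p that is not printed, held no match to any of the motifs. Among the 38 listed genes with a RefSeq window (Idh3a is named only), 15, or 39.5%, held ACGTG in at least 1 window, against 18.5% of all 27025 genes with windows. By role these were 6 of 16 glycolytic, 3 of 4 lactate, 3 of 6 pyruvate dehydrogenase and 3 of 12 TCA cycle genes. CCAAT was held by 20 of the 38 (52.6%, against 37.5% of all genes), the NRF1 letters by 3 (7.89%, against 4.23%) and AAGGTCA by 1 (2.63%, against 4.70%). Genes with several starts had more windows to match in. A match is a stretch of letters and shows no binding.

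None of the 36 members passed limma's test over all genes, whose call rate was 1.27% of genes in either direction, 0.787% higher and 0.488% lower in KO. At an unadjusted p under 0.05 there were 11 of 36, where 20.3% of all genes lay under it. The groups did not overlap for 14 of the 36, with KO above WT for 10 and below it for 4. Of all tested genes 26.3% did not overlap, 10.8% with KO above and 15.5% with KO below. The 11 with an unadjusted p under 0.05 were all 6 listed pyruvate dehydrogenase genes, 3 of 13 TCA cycle enzymes, 1 of 4 lactate genes and 1 of 13 glycolytic enzymes. The list was chosen with earlier results of these data known, so this spread carries no test. Of 8 tested pyruvate entry genes outside the list, 2 lay under 0.05, and the kinase genes Pdk1 and Pdk4 did not. The smallest adjusted p were those of Dld (0.0542), Pdk3 (0.0619) and Pdha1 (0.0781). With KO array 1 left out 3 of the 36 members passed (Dld, Pdk3 and Sucla2), as did 916 of all 12712 genes. With arrays centred on their medians Dld (adjusted p = 0.0376) and Pdk3 (adjusted p = 0.0431) passed, among 312 genes in all. Neither Dld nor Pdk3 passed when any other single array was left out. The same held without the filter, without the intensity trend and with probe sets averaged. Counts of members under the other fits are given below. Log2 fold changes of members ran from -0.55 to 0.57, with a median of 0.06 against -0.04 over all tested genes.

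**Figure D1:**
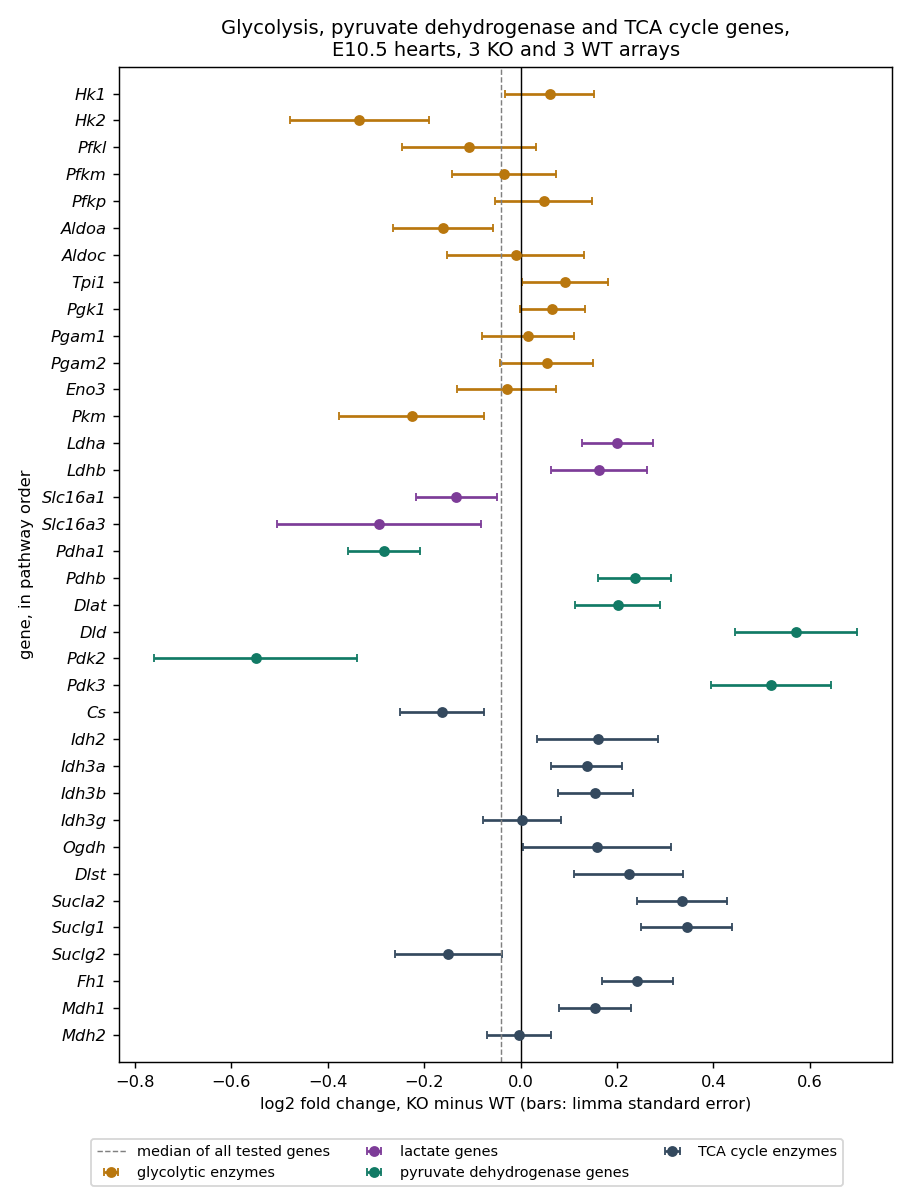
Log2 fold change, KO minus WT, (x axis) of the 36 members, down the page in pathway order, with limma standard errors as bars, coloured by role, 3 arrays per group. The glycolytic enzymes lie around 0 with the lowest at -0.33 (Hk2), while most TCA cycle enzymes lie above 0 and the pyruvate dehydrogenase genes spread from -0.55 (Pdk2) to 0.57 (Dld).

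The pyruvate dehydrogenase complex had the members with the largest differences in both directions. Dld, which encodes the E3 subunit that reoxidises lipoate in this complex and in the 2-oxoglutarate dehydrogenase complex, read 2317, 3186 and 3045 on the KO arrays, against 2020.4, 1991 and 1704 on the WT arrays. Every KO array lay above every WT array, with KO array 1 nearest to WT. The log2 fold change was 0.57 (SE 0.13, 95% interval 0.29 to 0.85, adjusted p = 0.0542). The core subunits differed from each other in direction. Pdha1, the X-linked catalytic E1 alpha subunit, read 4868, 4790.1 and 5193 in KO, against 6045, 6105 and 5899.85 in WT (-0.28, SE 0.07, 95% interval -0.45 to -0.12, adjusted p = 0.0781). Its partner Pdhb, the E1 beta subunit, read 11458.5, 11632 and 11281 in KO, against 9675, 9019 and 10525 in WT (0.24, SE 0.08, adjusted p = 0.117). The groups thus stood apart for both subunits of E1, with KO lower for the alpha and higher for the beta subunit. Dlat, the E2 acetyltransferase that carries the lipoyl arms, read 3331, 3738 and 3811 in KO, against 3321, 3052 and 3082 in WT (0.20, SE 0.09, adjusted p = 0.228). Here KO array 1 exceeded the highest WT array only narrowly.

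Of the kinases that phosphorylate and inhibit E1, 2 were members, and they went opposite ways. Pdk3, X-linked like Pdha1, read 1591, 2234 and 2079.6 in KO, against 1377, 1366 and 1336 in WT, a log2 fold change of 0.52 (SE 0.12, 95% interval 0.25 to 0.79, adjusted p = 0.0619). The WT arrays lay close together and KO array 1 was again the KO array nearest to them. Pdk2 was dim and read 120.5, 92.8 and 138 in KO, against 166, 158 and 185 in WT (-0.55, SE 0.21, 95% interval -1.01 to -0.09, adjusted p = 0.178), with no overlap. Outside the list, the kinase genes Pdk1 (0.03, SE 0.12) and Pdk4 (0.23, SE 0.14) overlapped between the groups.

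**Figure D2:**
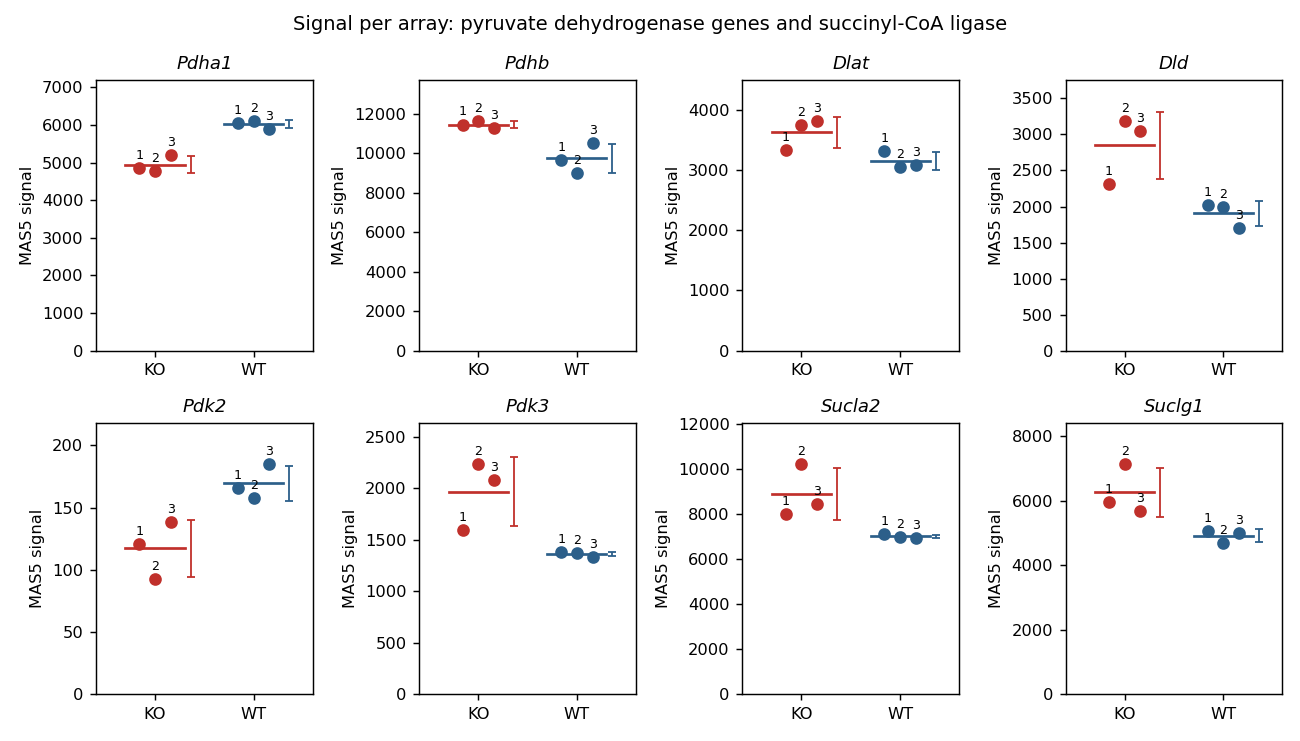
MAS5 signal (y axis, linear, from 0) on each array for the 6 pyruvate dehydrogenase genes and for Sucla2 and Suclg1 of succinyl-CoA ligase, KO left and WT right. Points are arrays with their replicate numbers, lines are means and bars are SD (n = 3), and in each panel no KO point lies within the range of the WT points.

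Other probe sets of these genes did not all read alike. The other Pdha1 probe set read 733, 857 and 805 in KO, against 739, 699 and 575 in WT, a difference of 0.26 with overlap, opposite to the set used. The other Pdhb probe set read 284, 248 and 333 in KO, against 381, 426 and 433 in WT, a difference of -0.53, again opposite. For Dlat, 1 further probe set gave 0.26 and another -0.11. Dld, apart from a set below the low-signal limit on every array, and Pdk2 and Pdk3 had no further probe set to compare. Over all members, 41 further probe sets were above the limit on at least 3 arrays, of which 26 had the same sign as the set used and 15 the opposite. At or above a mean signal of 1000, a bound chosen after seeing the values, 16 had the same sign and 6 the opposite. Below it, 10 had the same sign and 9 the opposite.

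**Figure D3:**
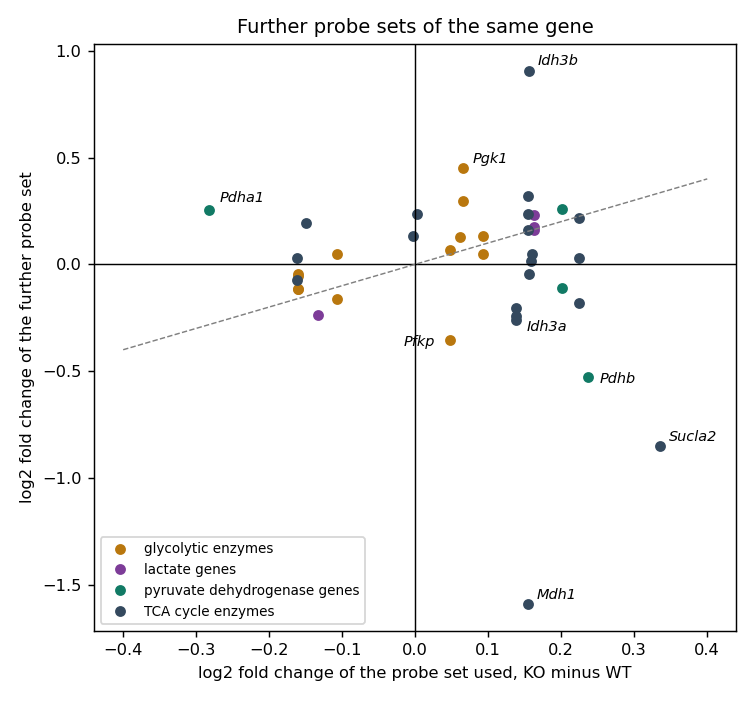
Log2 fold change, KO minus WT, of 41 further probe sets (y axis) against that of the probe set used for the same gene (x axis), with a dashed line of equality. Points above 0 on one axis and below 0 on the other are the 15 with opposite signs, among them sets of Pdha1, Pdhb, Idh3a, Sucla2 and Mdh1.

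In the TCA cycle, 10 of 13 enzymes had a positive log2 fold change, against 43.8% of all tested genes, and the median was 0.16. It was 0.0937 without KO array 3 and 0.0973 with Xist as a covariate. With probe sets averaged it was 0.0724, and Sucla2, Idh3a and Mdh1 turned negative while Suclg2 and Mdh2 turned positive. Averaging weighs dim and bright probe sets alike. For Sucla2 and Mdh1 the only negative probe sets were dim, above the low-signal limit on at most 4 arrays. Succinyl-CoA ligase, which makes GTP or ATP from succinyl-CoA, had the largest values. Suclg1, the alpha subunit common to both forms, read 5970.2, 7132 and 5694 in KO, against 5063, 4683 and 4993 in WT (0.34, SE 0.09, 95% interval 0.14 to 0.55, adjusted p = 0.0861). Sucla2, the beta subunit of the ATP-forming enzyme, read 7980.45, 10204 and 8451 in KO, against 7088, 6981 and 6929.65 in WT (0.34, SE 0.09, 95% interval 0.13 to 0.54, adjusted p = 0.0886). For both genes the KO arrays all lay above the WT arrays, with KO array 2 highest. Suclg2, the beta subunit of the GTP-forming enzyme, read 4403, 3430.1 and 3999.9 in KO, against 3986, 4226 and 4895 in WT, with overlap (-0.15, SE 0.11, adjusted p = 0.485). A dim further Sucla2 probe set, above the limit on 4 arrays, gave -0.85, and another, above it on 1 array, gave -1.09.

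Fh1, fumarase, read 9989, 10887 and 10796 in KO, against 8506, 8894 and 9376 in WT, again without overlap (0.24, SE 0.07, 95% interval 0.08 to 0.40, adjusted p = 0.104). The catalytic and a regulatory subunit of NAD-dependent isocitrate dehydrogenase, Idh3a (0.14, SE 0.07) and Idh3b (0.16, SE 0.08), also had every KO array above every WT array, while the other regulatory subunit Idh3g was at 0.00228 (SE 0.08). Averaged over its probe sets, Idh3a had -0.14. Their further probe sets were mixed, with 3 of Idh3a at -0.26 to -0.20 and those of Idh3b at -0.04 and 0.91. Cs, citrate synthase, which opens the cycle, was the TCA cycle enzyme with KO below WT on every array, at 15789, 12902 and 15833 in KO, against 15935, 16351 and 17344 in WT (-0.16, SE 0.09, adjusted p = 0.325). The brightest array of KO and the dimmest of WT were close, and further Cs probe sets gave -0.07 and 0.03. The 2-oxoglutarate dehydrogenase subunits Ogdh (E1, 0.16, SE 0.15) and Dlst (E2, 0.22, SE 0.11) overlapped between the groups, as did Idh2, the NADP-dependent mitochondrial isocitrate dehydrogenase (0.16, SE 0.13). Of the malate dehydrogenases, cytosolic Mdh1 had 0.15 (SE 0.08) and mitochondrial Mdh2 -0.00274 (SE 0.07), both with overlap. A further Mdh1 probe set gave 0.32, with every KO array above every WT array. Others of Mdh1 gave 0.16 and 0.24, and a dim one -1.59. The further Mdh2 probe set gave 0.13.

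Glycolytic enzymes were centred near 0, with a median of -0.01 (0.0393 with arrays centred on their medians), 6 of 13 positive and a range of -0.33 to 0.09. Hk2, the hexokinase isozyme of muscle and growing tissue, was the only one with groups apart. It read 3337, 2206 and 3291 in KO, against 3569.6, 3457 and 3931 in WT (-0.33, SE 0.14, 95% interval -0.65 to -0.02, adjusted p = 0.223). KO array 2 was far lower than the other arrays. Hk1, the widely expressed isozyme, read 6337, 5836 and 7377 in KO, against 6028, 6248 and 6385 in WT (0.06, SE 0.09, adjusted p = 0.751). Pkm, pyruvate kinase, read 7146, 4511 and 7138 in KO, against 7414, 7009.7 and 7077 in WT (-0.23, SE 0.15, adjusted p = 0.433). As for Hk2, KO arrays 1 and 3 lay near WT and KO array 2 below all others. Aldoa, the main muscle aldolase, read 29317, 20928 and 24188 in KO, against 26358, 27887.5 and 28213 in WT (-0.16, SE 0.10, adjusted p = 0.415). Its isozyme Aldoc went the other way on KO array 2, at 442, 603 and 437 in KO and 506, 499 and 469.8 in WT (-0.01, SE 0.14, adjusted p = 0.979), a difference whose sign turned with quantile normalization and median centring.

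The low reading of KO array 2 ran through much of glycolysis. It was the lowest of the 6 arrays for 10 of the 13 enzymes, where this held for 26.3% of all tested genes, and for 4 of the 13 TCA cycle enzymes. In contrast, KO array 3 was the highest of the 6 for 6 of the 13 glycolytic enzymes and 6 of the 13 TCA cycle enzymes, against 13.9% of all tested genes. KO array 2 was the KO array with a high Xist signal and with the highest macrophage marker sum, and the part of the macrophage markers was not tested. It also had the lowest summed signal of cardiomyocyte markers, at 148613 against 148832 on WT array 1, and was the lowest array for 4 of 7 of these markers (57.1%). Over genes its log2 signals correlated with those of the other arrays at 0.970 to 0.976, and the remaining pairs of arrays at 0.974 to 0.983. The part of these differences was not tested either. With Xist as a covariate, a fit that rests mostly on this array, the glycolytic median was -0.28. The remaining enzymes, the phosphofructokinases Pfkl (-0.11), Pfkm (-0.03) and Pfkp (0.05), Tpi1 (0.09), Pgk1 (0.07), Pgam1 (0.01), Pgam2 (0.05) and Eno3 (-0.03), overlapped between the groups. The widest 95% interval among these 8 was that of Pfkl, -0.41 to 0.20, so modest changes in either direction are not detectable with 3 arrays a group. The X-linked Pgk1 had 2 further probe sets at 0.30 and 0.45, both with every KO array above every WT array. The probe sets used for Aldoa, Tpi1, Pgk1, Mdh1, Idh3b and Suclg2 are of classes whose probes can also match other transcripts. Pgam1, Ldha and Aldoa have close pseudogene or retrogene copies. The signals of all these genes are thus less certain. The 3 Gapdh control probe sets, kept out of the test, differed by -0.08 at the 3′ end, -0.002 in the middle and 0.12 at the 5′ end. Their ratio of 3′ to 5′ signal was 0.969 ± 0.0274 in KO and 1.11 ± 0.0175 in WT (SD, n = 3 each), without overlap. The same ratio for Actb was 2.40 ± 0.164 in KO and 2.52 ± 0.147 in WT, with overlap.

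Lactate genes were split, with 2 of 4 positive. Ldha, the lactate dehydrogenase subunit of glycolytic tissue, whose start region is printed above, read 25068.5, 22236 and 26151.5 in KO, against 20452, 21356 and 22003 in WT (0.20, SE 0.07, 95% interval 0.04 to 0.36, adjusted p = 0.166). The groups did not overlap, though KO array 2 was close to the highest WT array. Ldhb, the subunit of the oxidative heart isozyme, read 7287, 7425 and 8332 in KO, against 6328, 6422 and 7914 in WT (0.16, SE 0.10, adjusted p = 0.390), and its 3 further probe sets gave 0.16 to 0.23. Both monocarboxylate transporters, which move lactate across the cell membrane, had negative values with overlap. Slc16a1 (MCT1) read 9765, 8427 and 9187 in KO, against 10834, 9765 and 9423.5 in WT (-0.13, SE 0.08, adjusted p = 0.402). Slc16a3 (MCT4) read 424, 221 and 386 in KO, against 391.6, 412 and 413 in WT (-0.29, SE 0.21, adjusted p = 0.470), with KO array 2 far below the other 5 arrays.

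Set against each other array by array, the TCA cycle enzymes stood higher relative to the glycolytic enzymes in KO. The median log2 signal of the TCA cycle enzymes, relative to each gene's WT mean, was 0.10, 0.12 and 0.22 on the KO arrays, against -0.05, -0.03 and 0.08 on the WT arrays. That of the glycolytic enzymes was 0.03, -0.20 and 0.13 on the KO arrays, against -0.04, -0.01 and 0.06 on the WT arrays. The glycolytic minus the TCA cycle median was -0.07, -0.33 and -0.10 in KO, against 0.01, 0.02 and -0.02 in WT, with every KO array below every WT array and KO array 2 farthest. On the fitted log2 fold changes the difference of the medians was -0.17, -0.10 with probe sets averaged, and -0.10 without KO array 2. Without that array the glycolytic median was 0.07. These medians are descriptions of a chosen list and carry no test.

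**Figure D4:**
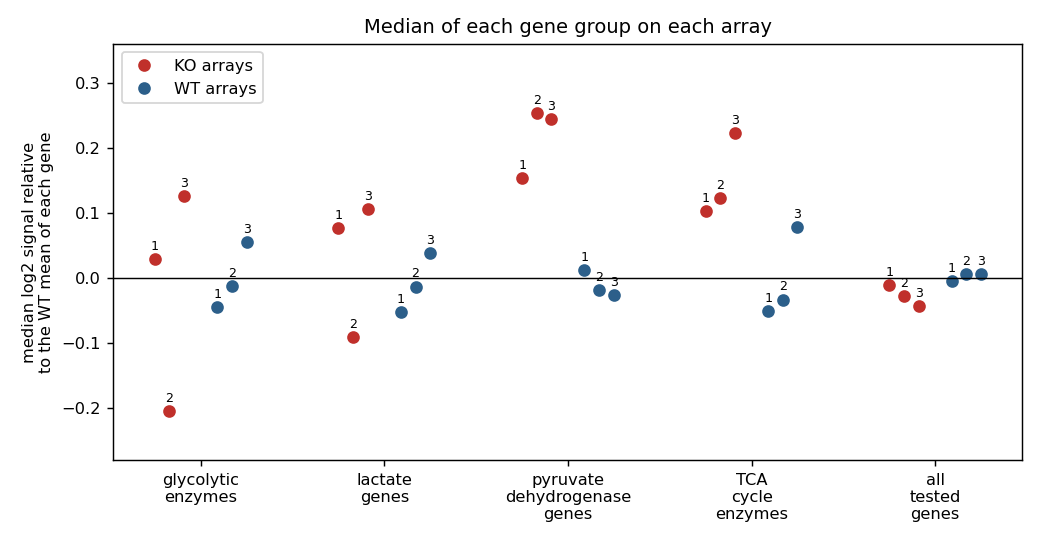
Median over each gene group of the log2 signal relative to the gene's WT mean (y axis) on each array, KO left and WT right in each group, points numbered by replicate. The KO arrays lie above the WT arrays for pyruvate dehydrogenase genes and TCA cycle enzymes, while KO array 2 is the lowest array for glycolytic enzymes at -0.20.

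Of 58 other genes of the same pathways, 51 were tested, 3 rose and none fell, which is 5.88% called against 1.27% of all genes. An unadjusted p under 0.05 was reached by 12 (23.5%, against 20.3% of all genes), and the fitted difference was positive for 25 (49.0%, against 43.8%), both near the share over all genes. Mpc1, a subunit of the carrier that brings pyruvate into mitochondria, rose, with 1922, 3307.5 and 2359 in KO, against 1407, 1209 and 1378 in WT (0.89, SE 0.17, adjusted p = 0.0378). Slc25a12, an aspartate-glutamate carrier of the malate-aspartate shuttle, rose, with 1255, 1786 and 1769 in KO, against 1024, 956 and 992 in WT (0.68, SE 0.14, adjusted p = 0.0446). Sdhd, a membrane anchor of succinate dehydrogenase, rose, with 6809, 8038 and 8552 in KO, against 5207, 5235 and 5166 in WT (0.58, SE 0.09, adjusted p = 0.0344). KO array 1 was the lowest KO array for all 3, and every KO array lay above every WT array. All 3 calls were lost when KO array 3 or any 1 WT array was left out (adjusted p from 0.114 to 0.194), and that of Slc25a12 also without KO array 2 (adjusted p = 0.0817). The other Sdhd probe set gave 0.67, while those of Slc25a12, both dimmer, gave -0.26 and 0.30.

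By list, pyruvate entry genes had 1 of 8 risen, Mpc1, with a median of 0.16. Next to it, Pdhx, the E3-binding protein that docks Dld on the pyruvate dehydrogenase complex, read 609.7, 702 and 724 in KO, against 485, 482 and 528 in WT (0.44, SE 0.11, adjusted p = 0.0746). Like Dld, it had KO array 1 nearest to WT. Pcx, pyruvate carboxylase, had -0.22 (SE 0.13). Among shuttles and carriers, Slc25a12 rose as 1 of 10 (median 0.07). Got1, the cytosolic transaminase of the malate-aspartate shuttle, read 1358, 1751 and 1785 in KO, against 1219, 1223 and 1003 in WT (0.50, SE 0.13, adjusted p = 0.0741). Slc25a13, the other aspartate-glutamate carrier, read 755, 1592 and 1548 in KO, against 773, 583 and 662 in WT (0.88, SE 0.24, adjusted p = 0.0861). For this gene KO array 1 lay within the WT range. Of 8 further TCA cycle and lipoylation genes Sdhd rose (median 0.10), with Sdha at 0.22 (SE 0.11) and Sdhb at 0.13 (SE 0.08).

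**Figure D5:**
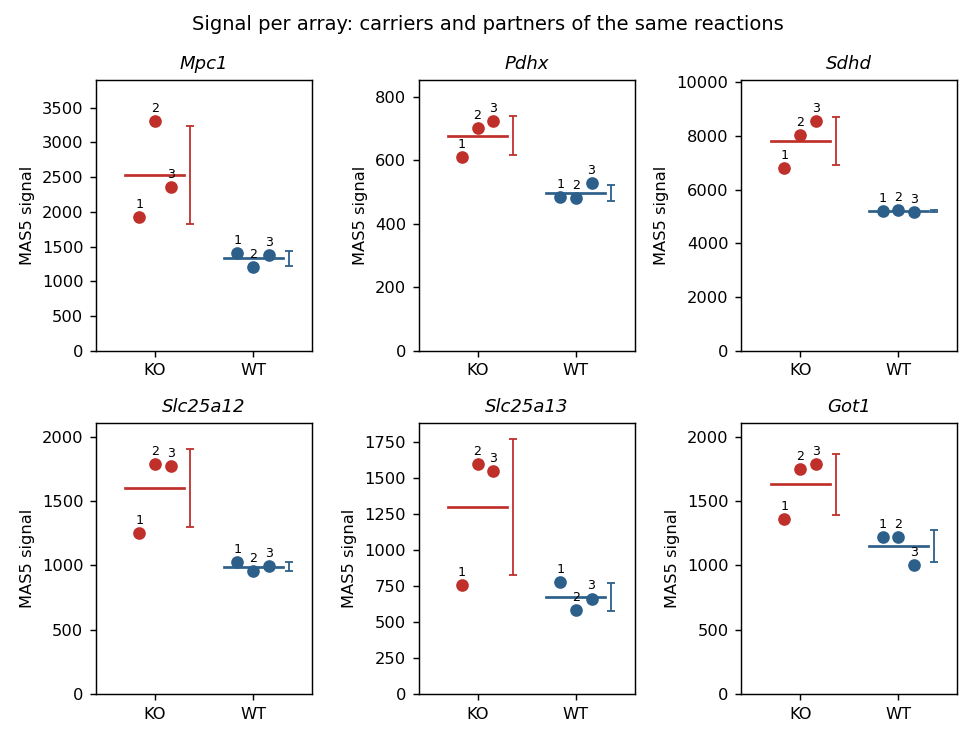
MAS5 signal (y axis, linear, from 0) on each array for the carriers Mpc1, Slc25a12 and Slc25a13 and for Pdhx, Sdhd and Got1, KO left and WT right. Points are arrays with replicate numbers, lines are means and bars are SD (n = 3), and KO array 1 is the lowest KO array in every panel, within the WT range for Slc25a13.

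None of the genes that feed or branch from glycolysis passed. All 4 glucose transporters had negative values (median -0.19), with Slc2a3 at -0.53 (SE 0.19, adjusted p = 0.156), Slc2a1 at -0.16 and Slc2a8 at -0.22, and KO array 2 was the lowest array for 3 of them. Of 9 other isozymes and regulators of glycolysis 7 were negative (median -0.18), led by Pfkfb2, which sets the level of a phosphofructokinase activator, at -0.56 (SE 0.22, adjusted p = 0.183), with Adpgk at -0.23 and Pklr at -0.44. Of 6 pentose phosphate genes 4 were negative (median -0.06). Among them Pgd, 6-phosphogluconate dehydrogenase, read 4982, 4081 and 4814 in KO, against 6354, 6003 and 5771 in WT without overlap (-0.39, SE 0.09, adjusted p = 0.0609). Tkt, transketolase, had -0.20 (SE 0.08) and Rpe -0.06. Of 6 cytosolic and malic enzymes, with a median of -0.01, the malic enzyme gene Me3 did not exceed the low-signal limit on any KO array, a difference of at least 1.19-fold lower in KO (adjusted p = 0.210), with Idh1 at -0.29 and Me1 at 0.24.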

How the data were processed

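RNA of KO and WT embryo hearts was hybridised as biotin-labelled cRNA to Affymetrix mouse arrays, 3 per genotype. The authors deposited 1 linear signal intensity for each probe set. The submitters' processing notes name MAS5 and Affymetrix Expression Console, without settings. After trimming 2% at each end, every array had a mean of 500. The number of arrays limits the precision.

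The 64 control probe sets were left out. Of the other 45037, 34945 had 1 gene symbol in the platform annotation, 932 several and 9160 none. Of the named sets 34741 matched the RefSeq gene table, which changed 0 symbols. Values were taken to log2. A gene was tested if its probe set exceeded a low-signal limit, each array's 40th percentile (44.48 to 52.82), on at least 3 of 6 arrays. "At least N-fold" sets the brighter group's mean log2 signal against the higher of limit and signal per dim array. KO minus WT was fitted over all 12712 genes with limma 3.58.1 in R 4.3.3 (intensity trend, Benjamini-Hochberg over all genes, threshold 0.05, two-sided), and every p and SE is limma's. Genes are said to have risen or fallen if they passed it.

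Members, lists, the naming rule and alternatives were chosen with earlier results of these data known. Values on every array are given for the 3 members of each role with the smallest p and their isozymes or partners, and those of Cs and Dlat were added after their values were seen. Of other lists the 3 genes with the smallest p are named, with Pdk1 and Pdk4 added by their role. The fit was run on simulated data with independent normal noise for each gene. Those data held no effects shared between genes, such as sex or litter, so they do not show the fit's error rate here. Sequences are from RefSeq (GRCm38.p6). Figures were drawn with matplotlib 3.10.9.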

Additional observations from a re-analysis of the deposited data

How the results depend on the processing

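The count of all genes past the threshold, 162, was 312 with median centring, 1 without the filter, 291 with a stricter filter, 0 with probe sets averaged, 1 without the intensity trend, 819 with Xist as a covariate, 805 at a threshold of 0.10, and 0 to 916 when 1 array was left out (916 without KO array 1). The count of members, 0, was 2 with quantile normalization (Dld and Pdha1), 2 with median centring and 2 with the stricter filter (Dld and Pdk3 in both), 7 with the Xist covariate, 5 at a threshold of 0.10, and 0 to 3 when 1 array was left out. The 3 were Dld, Pdk3 and Sucla2 without KO array 1 (adjusted p = 0.00847, 0.00847 and 0.0322). The 7 were Hk2 (-0.87), Pkm (-0.85), Slc16a3 (-1.08), Dld (0.78), Pdk3 (0.77), Sucla2 (0.62) and Suclg1 (0.60). In that fit KO array 2 had a weight of 1.26 in the KO mean, KO array 1 one of -0.09 and KO array 3 one of -0.17. The count of other pathway genes, 3, was 0 without the filter, 0 with probe sets averaged, 0 without the trend, 6 with the Xist covariate, 7 at 0.10, and 0 to 8 when 1 array was left out. For this count and for single genes that are no members, Cs, Idh2, Idh3a, Idh3b, Idh3g, Ogdh, Dlst, Mdh1, Mdh2 and the overlapping glycolytic enzymes the alternatives were added after seeing the data.

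Medians moved by more than the spread between arrays with the Xist covariate, to -0.28 for glycolytic enzymes, -0.15 for lactate genes and -0.38 for the glycolytic minus TCA cycle difference. The pyruvate dehydrogenase median was 0.27 with median centring, and with probe sets averaged it was 0.0514 and that of TCA cycle enzymes 0.0724 (0.0937 to 0.20 when 1 array was left out). The glycolytic median, near 0, was 0.0393 with median centring, and the difference was negative in each of the 9 of 16 alternative fits that moved it, the other fits leaving it as it was. With probe sets averaged Pdhb (-0.15), Sucla2 (-0.54), Suclg2 (0.0223), Pfkp (-0.0808), Idh3a (-0.14), Mdh1 (-0.14), Mdh2 (0.0659), Sdha (-0.20) and Rpe (0.0111) changed sign and Aldoc and Pfkfb2 had no value, nor did Me3 with the stricter filter. With the Xist covariate Pfkp (-0.20), Tpi1 (-0.0693), Pgam1 (-0.28), Pgam2 (-0.20), Idh2 (-0.22), Idh3g (-0.0852), Ogdh (-0.33) and Pdk1 (-0.23) did. Quantile normalization turned Pgam1 (-0.0299), Idh3g (-0.0329) and Pdk1 (-0.0034), and median centring Pfkm (0.0158), Eno3 (0.0204) and Mdh2 (0.0467). When 1 array was left out, values crossed 0 for Pfkl (-0.22 to 0.0330), Pfkm (-0.11 to 0.0585), Pfkp (-0.0157 to 0.14), Pgam1 (-0.0645 to 0.12), Pgam2 (-0.0065 to 0.15), Eno3 (-0.12 to 0.0809), Idh3g (-0.0540 to 0.0425), Ogdh (-0.0319 to 0.33), Mdh2 (-0.0471 to 0.0368), Pdk1 (-0.0786 to 0.13) and Rpe (-0.17 to 0.0063). Pgd passed with quantile normalization (adjusted p = 0.0435), the stricter filter (0.0493), the Xist covariate (0.0187) and without KO array 1 (0.0280). Pdhx, Got1, Slc25a13 and Slc2a3 also passed without KO array 1 (adjusted p = 0.0338, 0.0187, 0.00361 and 0.0319), and Slc2a3 with the Xist covariate (0.0109). Hk1 was -0.15 with the Xist covariate and -0.0321 to 0.14 when 1 array was left out. Aldoc was 0.0277 with quantile normalization, 0.0393 with median centring, 0.40 with the Xist covariate and -0.16 to 0.0704 when 1 array was left out. Of 941 values under alternatives, over all 36 tested members and 23 other pathway genes, 841 kept their sign and side of the threshold, 22 lost the call, 26 gained it and 52 changed sign. Except where stated, the cause was not tested.

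With the replicate number as a block, 1 member passed, Dld (0.57, adjusted p = 0.0490), and 189 genes in all. The numbers were not taken as pairs, because the labels do not tell which hearts were littermates. Deviations of same-numbered KO and WT arrays correlated at 0.02, 0.06 and 0.02, and those of differently numbered arrays at -0.04 to 0.02. KO arrays 1 and 2 correlated best with their own number, and KO array 3 with WT array 1. Deviations within a group of 3 arrays are not independent, so these values cannot decide whether the numbers mark pairs. With 3 arrays a group, dim genes such as Pdk2 and Me3 are measured least well.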
